A study of Mus musculus with 57 samples.

Results

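Thyroid hormone signalling in the brain was followed through 6 genes, Thra, Thrb, Slco1c1, Dio2, Hr and Klf9, in mouse prefrontal cortex. They were taken as the receptors, a transporter, an activating deiodinase and a pair of responsive genes, by looking up the Ensembl identifiers of these symbols in the deposited table. All 6 were found among its 18088 genes and all 6 passed the filter on low values. Lithium is known to lower the output of the thyroid gland, which is why these genes were set out across the drug groups. Blood thyroid hormone was not part of the data analysed here.

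The thyroid gland releases mostly thyroxine (T4), a precursor that must enter the brain and be activated there. In rodents Slco1c1 encodes OATP1C1, which carries T4 across the blood-brain barrier and into astrocytes. Dio2, the type 2 deiodinase of astrocytes, converts T4 to the active hormone T3. T3 binds the nuclear receptors encoded by Thra and Thrb, which stay on DNA with or without hormone and recruit coactivators or corepressors. Hr encodes Hairless, a corepressor that binds these receptors and is itself induced by T3 in the developing rat brain. Klf9 encodes a zinc finger transcription factor induced by T3 and also by glucocorticoids.

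The mice were of the C57BL/6J strain. Mice labelled HT carried 1 copy of the Shank3 delta C allele, which alters a scaffold protein of excitatory synapses, and the others were wild type (WT). They received lithium, a mood stabiliser, or fluoxetine, an inhibitor of serotonin reuptake, or vehicle, over 3 weeks from postnatal day 3 to 24. Each drug reached the pups through their mothers' milk, so the dose taken by a pup was not measured, and the cortex was dissected on postnatal day 25. There were 12 groups by genotype, drug and sex: 9 held 5 libraries, WT lithium females and HT lithium males 4 each, and HT vehicle males 3. The labels name no litters, so the p-values measure the spread between these mice, some of which may share a mother.

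Values are normalised read counts, each library's gene counts scaled by a single size factor, and the 56 libraries held 22984556 to 35969254 recovered reads each. All 9 neuron markers were above 0 in every library, and the glutamate transporter gene Slc17a7 of excitatory neurons lay between 28646 and 61297. Libraries of 1 group differed in tissue at the edge of the dissection. The level of 5 olfactory bulb markers, each taken relative to its mean over libraries and then averaged, ran over the libraries between 0.0769 and 4.41, with a median of 0.436 in lithium, 0.430 in fluoxetine and 0.972 in vehicle libraries; of the 5, Eomes was at 0 in its lowest library. In median absolute deviations from the median, HT lithium female replicate 5 stood at −7.99 in mitochondrially encoded genes and HT vehicle female replicate 1 at 20.4 in choroid plexus genes. In tissue of this kind fewer cells of a type and less RNA per cell cannot be told apart.

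The 6 genes were expressed at very different levels. Per kilobase of the longest transcript, the mean normalised count was 8830 for Thra, 1689 for Klf9, 849 for Dio2, 720 for Slco1c1, 266 for Thrb and 236 for Hr. Thra therefore stood far above Thrb on this scale, although isoforms of Thra that do not bind hormone are counted with those that do. Between libraries Dio2 varied most, with its highest library 3.28 times its lowest, and Thra least, with 1.64 times. Within groups the residual SD on the log2 scale was 0.28 for Dio2, 0.24 for Slco1c1, 0.23 for Thrb, 0.22 for Hr, 0.17 for Thra and 0.15 for Klf9. Ranked by mean over the 12 groups, no 2 neighbouring groups were apart by more than the larger SD of the pair for any gene but Klf9, for which 1 of 11 neighbouring pairs was.

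**Figure D1:**
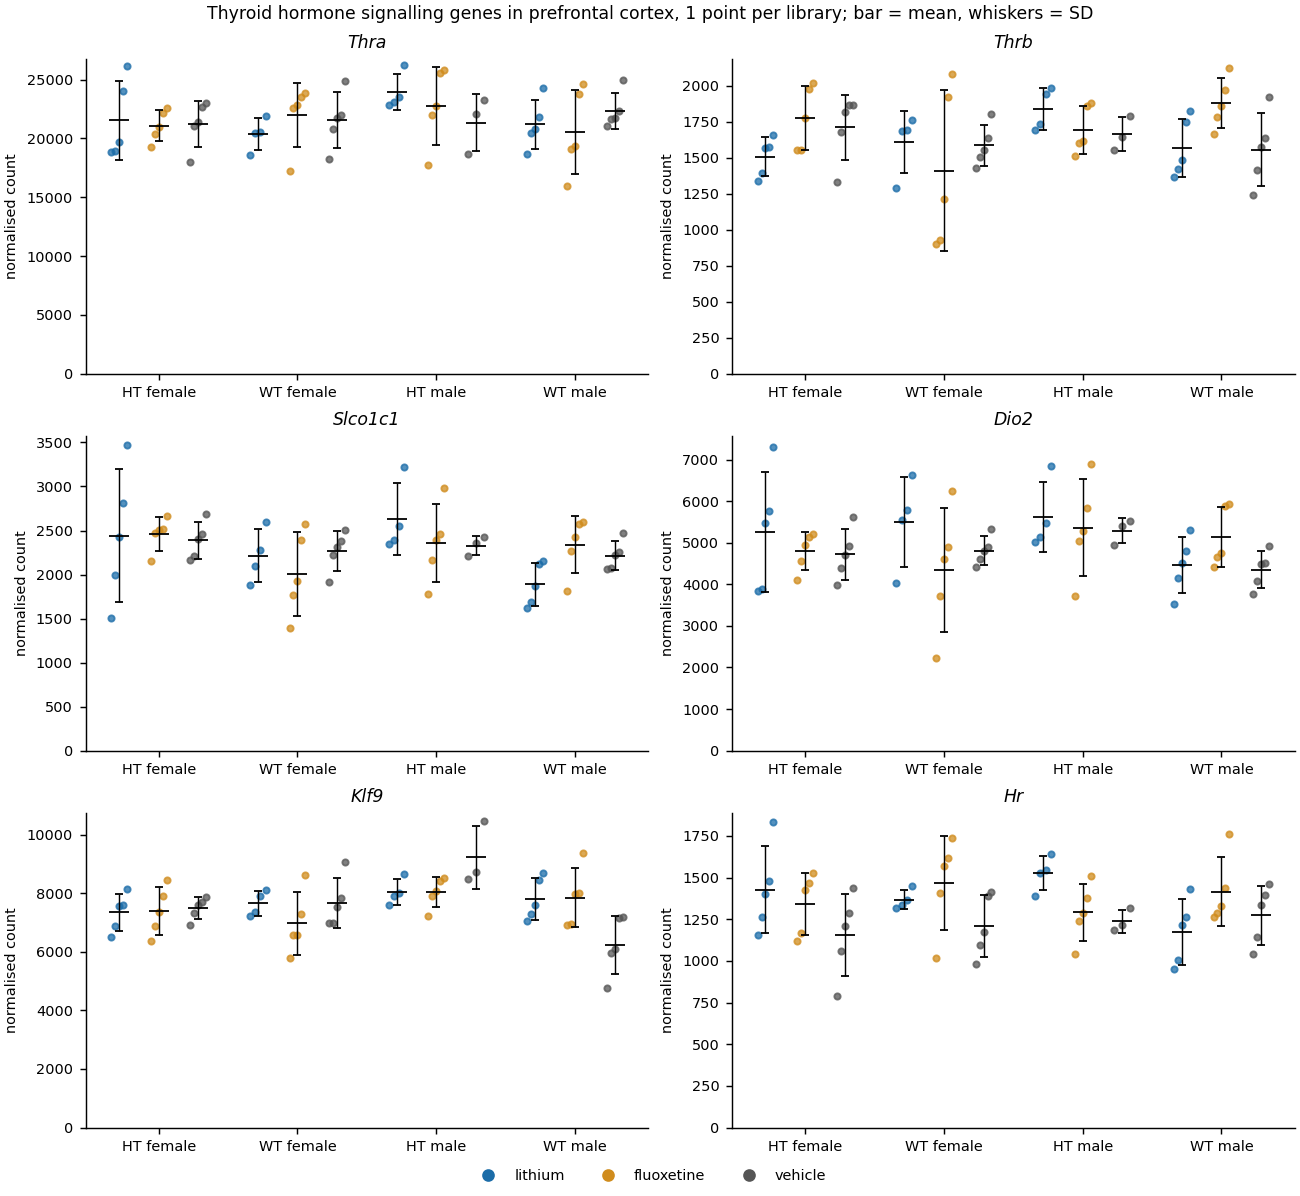
Normalised count (y axis) of each of the 6 genes in every library, by genotype and sex (x axis), with lithium, fluoxetine and vehicle in different colours. Points are libraries, bars group means and whiskers SD; the 3 HT vehicle male libraries of Klf9 sit between 8472 and 10458.5, all above the 5 WT vehicle males at 4774 to 7190.

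Thra (ENSMUSG00000058756, GRCm38 chromosome 11, 98740638 to 98769006, plus strand) encodes the main thyroid hormone receptor of the brain. Among males it averaged 23936 ± 1554 (SD, n = 4) in HT lithium, 22758 ± 3288 (n = 5) in HT fluoxetine, 21353 ± 2420 (n = 3) in HT vehicle, 21187 ± 2054 in WT lithium, 20558 ± 3583 in WT fluoxetine and 22348 ± 1546 in WT vehicle mice (n = 5 each). Among females it averaged 21529 ± 3351 in HT lithium, 21082 ± 1339 in HT fluoxetine and 21226 ± 1978 in HT vehicle mice (n = 5 each). WT females averaged 20374 ± 1343 (n = 4) under lithium, 21995 ± 2733 under fluoxetine and 21540 ± 2392 under vehicle (n = 5 each). The highest mean, of HT lithium males, was thus 1.17 times the lowest, of WT lithium females, and these 2 groups, picked as the ends of 12, did not overlap. The last exons of Thra overlap Nr1d1 on the other strand, and the sources used here do not say whether counting used the strand.

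Thrb (ENSMUSG00000021779, chromosome 14, 17660261 to 18038090, plus strand) encodes the receptor TR beta. Male means were 1839 ± 147 in HT lithium (n = 4), 1693 ± 165 in HT fluoxetine (n = 5), 1665 ± 118 in HT vehicle (n = 3), 1569 ± 203 in WT lithium, 1881 ± 175 in WT fluoxetine and 1557 ± 255 in WT vehicle mice (n = 5 each). Female means were 1508 ± 135 in HT lithium, 1777 ± 223 in HT fluoxetine, 1712 ± 226 in HT vehicle, 1412 ± 557 in WT fluoxetine and 1586 ± 144 in WT vehicle mice (n = 5 each), and 1608 ± 216 in WT lithium mice (n = 4). The highest and the lowest mean both belonged to WT fluoxetine mice, males and females, and their libraries overlapped. The 5 WT fluoxetine females split widely, with 932, 1217, 1921, 904 and 2085 in replicates 1 to 5, against 1429, 1506, 1554, 1636 and 1807 in WT vehicle females in ascending order. Replicates 1, 2 and 4, which were low, had olfactory levels of 4.06, 2.74 and 4.41, while replicates 3 and 5 had 0.127 and 0.077. Over all 56 libraries, with group means removed, Thrb ran against the olfactory level (r = −0.77, rho = −0.76, permutation adjusted p = 4.5e-05 over 36 relations) and with the neuron level (r = 0.74, rho = 0.73, permutation adjusted p = 4.5e-05). The part of these tissue differences in the level of Thrb was not tested beyond the settings given with the comparisons.

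Slco1c1 (ENSMUSG00000030235, chromosome 6, 141524368 to 141570177, plus strand), the T4 transporter gene, had male means of 2627 ± 408 in HT lithium (n = 4), 2357 ± 441 in HT fluoxetine (n = 5), 2330 ± 107 in HT vehicle (n = 3), 1891 ± 245 in WT lithium, 2336 ± 324 in WT fluoxetine and 2216 ± 165 in WT vehicle mice (n = 5 each). Its female means were 2440 ± 756 in HT lithium, 2461 ± 188 in HT fluoxetine, 2387 ± 210 in HT vehicle, 2010 ± 478 in WT fluoxetine and 2268 ± 223 in WT vehicle mice (n = 5 each), and 2213 ± 300 in WT lithium mice (n = 4). The ends of the order were 2 lithium groups of the same sex. HT lithium males had 2342, 2390, 2552.5 and 3224, against 1614, 1692, 1873, 2122 and 2155 in WT lithium males, so these groups did not overlap and their means stood 1.39-fold apart. The pair was picked as the ends of 12 groups, so the difference is a description with no test.

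Dio2 (ENSMUSG00000007682, chromosome 12, 90724552 to 90738438, minus strand), the T4-activating enzyme, had male means of 5618 ± 842 in HT lithium (n = 4), 5361 ± 1165 in HT fluoxetine (n = 5), 5292 ± 299 in HT vehicle (n = 3), 4460 ± 673 in WT lithium, 5132 ± 724 in WT fluoxetine and 4356 ± 438 in WT vehicle mice (n = 5 each). Its female means were 5256 ± 1453 in HT lithium, 4790 ± 457 in HT fluoxetine, 4726 ± 611 in HT vehicle, 4338 ± 1488 in WT fluoxetine and 4813 ± 345 in WT vehicle mice (n = 5 each), and 5502 ± 1081 in WT lithium mice (n = 4). The largest spread lay within groups. HT lithium females had 5769, 7313, 5477, 3877 and 3844 in replicates 1 to 5, and WT fluoxetine females had 2229, 4600, 4899, 3718 and 6245. Slco1c1 followed the same libraries, with 2423, 3469, 2815, 1990 and 1502 in the HT lithium females and 1389, 1930, 2394, 1765 and 2569 in the WT fluoxetine females. The same library, HT lithium female replicate 2, was the highest of all 56 for both genes, and WT fluoxetine female replicate 1 was the lowest for both. Thrb and Dio2 overlap predicted genes on the other strand, so part of their reads may come from those.

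Promoters are shown for the pair that moved together, Slco1c1 and Dio2, and for Klf9, the gene called by the test. Each runs 250 bases before to 50 bases after a RefSeq transcript start on GRCm38.p6; 4 of the 6 genes were in the RefSeq table used, which has no entry for Thra and Hr.
Dio2, chr12:90738989-90739288, minus strand: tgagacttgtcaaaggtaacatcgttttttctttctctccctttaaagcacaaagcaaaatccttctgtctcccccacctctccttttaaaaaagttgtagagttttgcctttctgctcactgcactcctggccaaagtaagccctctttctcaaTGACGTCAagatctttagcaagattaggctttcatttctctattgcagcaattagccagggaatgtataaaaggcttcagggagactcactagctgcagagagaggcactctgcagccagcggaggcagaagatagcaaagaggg
Slco1c1, chr6:141524104-141524403, plus strand: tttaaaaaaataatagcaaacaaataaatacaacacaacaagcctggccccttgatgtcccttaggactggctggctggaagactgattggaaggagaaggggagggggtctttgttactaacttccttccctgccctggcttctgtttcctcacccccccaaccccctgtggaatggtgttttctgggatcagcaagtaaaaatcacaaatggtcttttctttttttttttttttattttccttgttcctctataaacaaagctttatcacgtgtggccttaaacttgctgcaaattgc
Klf9, chr19:23140976-23141275, plus strand: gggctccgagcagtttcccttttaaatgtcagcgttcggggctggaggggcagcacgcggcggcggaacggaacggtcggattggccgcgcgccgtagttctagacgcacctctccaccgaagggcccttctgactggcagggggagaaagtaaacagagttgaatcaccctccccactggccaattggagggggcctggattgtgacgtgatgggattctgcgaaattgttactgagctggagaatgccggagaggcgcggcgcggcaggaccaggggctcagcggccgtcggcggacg
Capitals mark matches on either strand to 4 motifs chosen after the sequences were seen: AGGTCA, the half-site of thyroid hormone receptors, AGAACA, the half-site of the glucocorticoid receptor, GGGCGG, the GC box, and TGACGTCA, the cAMP response element. The Dio2 window held TGACGTCA beginning 95 bases before the start, a match found in 1.79% of 32851 RefSeq promoters of the same length. None of the 4 motifs lay in the Slco1c1 and Klf9 windows, while AGGTCA occurred in 16.3%, AGAACA in 19.0% and GGGCGG in 35.7% of all promoters. Of 2 Thrb promoters in the table, 1 held AGGTCA, 184 bases before its start. These matches describe the letters of the windows only.

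Hr (ENSMUSG00000022096, chromosome 14, 70552212 to 70573548, plus strand), the T3-induced corepressor gene, had male means of 1527 ± 103 in HT lithium (n = 4), 1291 ± 172 in HT fluoxetine (n = 5), 1239 ± 68.7 in HT vehicle (n = 3), 1174 ± 198 in WT lithium, 1416 ± 205 in WT fluoxetine and 1274 ± 177 in WT vehicle mice (n = 5 each). Its female means were 1427 ± 259 in HT lithium, 1342 ± 185 in HT fluoxetine, 1158 ± 246 in HT vehicle, 1469 ± 281 in WT fluoxetine and 1210 ± 188 in WT vehicle mice (n = 5 each), and 1367 ± 58.0 in WT lithium mice (n = 4). Both drugs had a higher median than vehicle: lithium libraries ran between 951 and 1836 with a median of 1378 (n = 18), fluoxetine libraries between 1015 and 1762 with a median of 1390 (n = 20), and vehicle libraries between 791 and 1460 with a median of 1213 (n = 18). The ranges overlapped over most of their width. The highest library of Hr was HT lithium female replicate 5 and the lowest HT vehicle female replicate 1, which are the 2 libraries that stood apart in other genes.

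Klf9 (ENSMUSG00000033863, chromosome 19, 23141226 to 23168134, plus strand) had male means of 8034 ± 444 in HT lithium (n = 4), 8031 ± 516 in HT fluoxetine (n = 5), 9222 ± 1079 in HT vehicle (n = 3), 7812 ± 723 in WT lithium, 7846 ± 1001 in WT fluoxetine and 6229 ± 997 in WT vehicle mice (n = 5 each). Vehicle males of the 2 genotypes were thus the highest and the lowest of the 12 groups and did not overlap. Its female means lay close together, at 7346 ± 646 in HT lithium, 7393 ± 819 in HT fluoxetine, 7485 ± 371 in HT vehicle, 6970 ± 1062 in WT fluoxetine and 7682 ± 852 in WT vehicle mice (n = 5 each), and 7655 ± 436 in WT lithium mice (n = 4).

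Lithium against vehicle, with both genotypes and sexes weighted equally, moved many genes of the cortex but called none of the 6: 21.7% of the 18026 genes tested passed an adjusted p of 0.05, against 0 of 6 here. The test was limma's moderated test on log2(value + 1), two-sided, with Benjamini-Hochberg adjustment over all tested genes; 1 of the 6 had an unadjusted p below 0.05, and edgeR on the recovered reads also called 0. Hr had the largest value, a log2 fold change of 0.17 ± 0.07 (SE, 95% interval 0.02 to 0.32, adjusted p = 0.0897). Dio2 had 0.10 ± 0.09 (−0.08 to 0.28, adjusted p = 0.481). The other 4 lay between −0.03 and 0.03: the interval ran from −0.11 to 0.12 for Thra, from −0.15 to 0.15 for Thrb, from −0.19 to 0.12 for Slco1c1 and from −0.07 to 0.13 for Klf9. With these intervals a change of either receptor beyond the stated bounds was not seen, while a change within them is not excluded. The median of the 6 was 0.02, and that of all tested genes −0.00.

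Within genotypes lithium again called 0 of 6, where 9.77% of tested genes were called in HT and 11.7% in WT mice; 1 of the 6 had an unadjusted p below 0.05 in each, and edgeR called 0. In HT mice this was Hr, at 0.31 ± 0.11 (95% interval 0.09 to 0.52, limma adjusted p = 0.0578), and in WT mice it was Klf9, at 0.17 ± 0.07 (0.03 to 0.31, limma adjusted p = 0.105). HT lithium males had Hr values of 1392, 1528, 1546 and 1643, against 1186, 1214 and 1316 in HT vehicle males. HT lithium females had 1158, 1265, 1400.0, 1478 and 1836, against 791, 1060.2, 1211, 1289.6 and 1437 in HT vehicle females. The male groups did not overlap and the female groups did; taken alone, a contrast added after the data were seen, the males gave 0.30 (limma adjusted p = 0.508), with 0.0166% of genes called.

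Which side of the threshold Hr fell on changed with the handling of tissue and GC content. With the olfactory level as a covariate it was called for lithium over both genotypes (0.17, adjusted p = 0.0186), lithium in HT mice (0.32, adjusted p = 0.0061) and fluoxetine over both genotypes (0.19, adjusted p = 0.0157). Without the 14 most olfactory libraries the adjusted p was 0.0291, 0.0109 and 0.0478 for the same 3 comparisons. After a correction of each library for GC content and length the values were 0.07 (adjusted p = 0.566), 0.14 (0.567) and 0.11 (0.429), and without the 2 libraries that stood apart 0.11 (0.236), 0.19 (0.243) and 0.14 (0.166). Hr has the highest transcript GC content of the 6, at 61.6%. Over libraries with group means removed it ran against the astrocyte level (r = −0.65, rho = −0.67) and the olfactory level (r = −0.62, rho = −0.57), each with permutation adjusted p = 4.5e-05, and with the slope of log2 values on GC content (r = 0.42, rho = 0.41, permutation adjusted p = 0.00266). That slope, per 10 percentage points, had a median of 0.039 in lithium, 0.023 in fluoxetine and −0.027 in vehicle libraries. Its part in the result was not tested beyond the correction given.

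Fluoxetine against vehicle, over both genotypes, called 0 of the 6 where 7.62% of tested genes were called; 1 had an unadjusted p below 0.05, and edgeR called 0. Hr was again the gene with the largest value, 0.18 ± 0.07 (95% interval 0.03 to 0.32, limma adjusted p = 0.124), and this comparison shares its vehicle libraries with the lithium one. The intervals of the others were −0.12 to 0.10 for Thra, −0.12 to 0.18 for Thrb, −0.17 to 0.13 for Slco1c1, −0.17 to 0.18 for Dio2 and −0.11 to 0.09 for Klf9. In HT mice 0% of genes and 0 of the 6 were called by limma; 1307 of the 18026 genes and 0 of the 6 had an unadjusted p below 0.05, and edgeR also called no gene. In WT mice limma called 5.18% of genes, and 0 of the 6 passed with either tool, Hr standing at 0.21 (limma adjusted p = 0.204) as the only one of the 6 with an unadjusted p below 0.05; with the olfactory level as a covariate Hr was called (0.25, adjusted p = 0.0255). Thrb in WT mice had 0.01 (limma adjusted p = 0.958) with all libraries, but 0.29 (adjusted p = 0.0174), and so a call, without the 14 most olfactory ones.

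Set against each other, lithium and fluoxetine differed in 1.84% of tested genes and in 0 of the 6, by limma and by edgeR, and none of the 6 had an unadjusted p below 0.05. Hr differed by −0.01 (95% interval −0.15 to 0.14), Dio2 by 0.09 (−0.08 to 0.27) and Klf9 by 0.03 (−0.06 to 0.13). A difference between the 2 drugs was thus not shown for any of the 6, and those intervals bound its size.

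**Figure D2:**
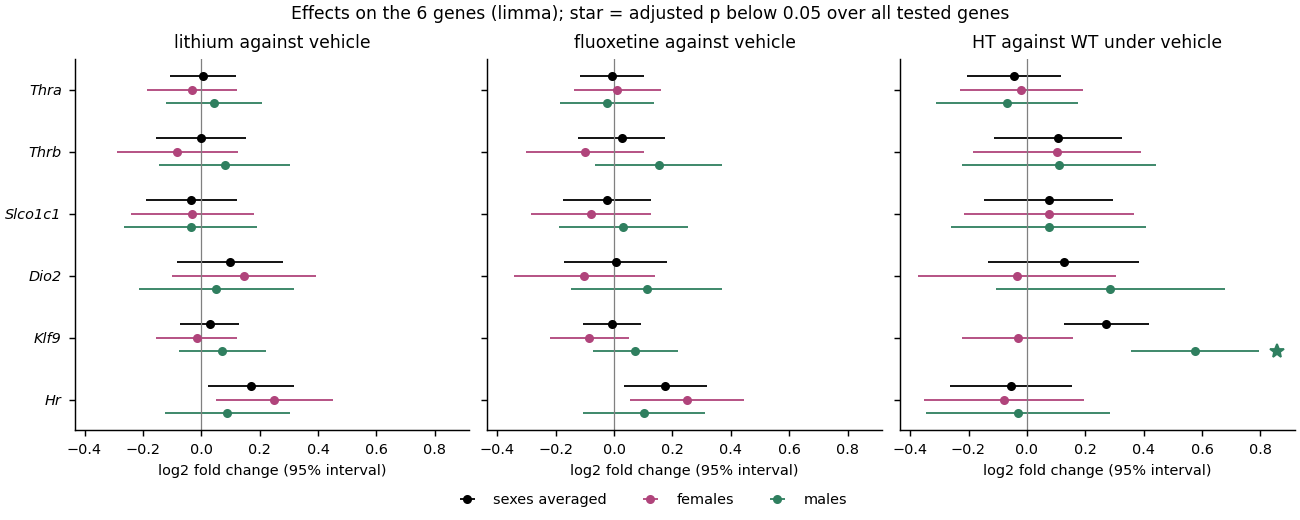
Log2 fold change (x axis, with 95% interval) of each gene for lithium against vehicle, fluoxetine against vehicle and HT against WT under vehicle, with the sexes averaged and in females and males. Klf9 in vehicle males (star), at 0.58, is the only value called. Intervals that also lie above 0 belong to Klf9 for HT against WT with the sexes averaged and to Hr under both drugs, averaged and in females.

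By sex, lithium called 1.15% of genes in males and 21.3% in females, and fluoxetine 0.00555% in males and 12.1% in females, with 0 of the 6 in each by limma and by edgeR. In males none of the 6 had an unadjusted p below 0.05, and Hr was at 0.09 under lithium and 0.10 under fluoxetine. In females Hr had one, at 0.25 ± 0.10 (95% interval 0.05 to 0.45, limma adjusted p = 0.0642) for lithium and 0.25 ± 0.10 (0.06 to 0.44, limma adjusted p = 0.0814) for fluoxetine. Without the 2 libraries that stood apart these were 0.14 (adjusted p = 0.311) and 0.18 (0.168), and after the GC and length correction 0.08 (0.635) and 0.09 (0.659). With the olfactory level as a covariate Hr was called in females for both drugs, at 0.28 (adjusted p = 0.00474) for lithium and 0.30 (0.00324) for fluoxetine. The difference itself, males minus females, was called for 0.594% of genes under lithium and 0.322% under fluoxetine and for 0 of the 6 in both, with none at an unadjusted p below 0.05. Contrasts within 1 genotype and sex, added after the data were seen, called 0 of the 6 among females, beside 6.62% of genes for lithium in WT, 10.5% for lithium in HT, 12.1% for fluoxetine in WT and 0.727% for fluoxetine in HT females. In WT fluoxetine females Thrb was called (−0.42, limma adjusted p = 0.0243) when replicate 5, its highest library, was left out. With all libraries the value was −0.25 (limma adjusted p = 0.250), with the olfactory level as a covariate −0.05, and without the 14 most olfactory libraries it turned to 0.30 (adjusted p = 0.140).

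Genotype under vehicle, with the sexes averaged, called 0% of tested genes and 0 of the 6 by limma; 1119 genes and 1 of the 6 had an unadjusted p below 0.05, and edgeR called 1 gene, not among the 6. That member was Klf9, at 0.27 ± 0.07 (95% interval 0.13 to 0.42, limma adjusted p = 0.553). In males Klf9 was called. The 3 HT vehicle males had 8472, 8734 and 10458.5, against 4774, 5951, 6085, 7143 and 7190 in the 5 WT vehicle males, so each HT male was above every WT male. It rose by 0.58 ± 0.11 on the log2 scale (SE, 95% interval 0.36 to 0.80), or 1.49-fold (1.28 to 1.74), with limma adjusted p = 0.00882. Only 0.261% of genes were called in this comparison, 28 higher and 19 lower, and 1 of the 6. The other 5 were not called, with Dio2 at 0.29 (−0.11 to 0.68, limma adjusted p = 0.579), Thrb at 0.11, Slco1c1 at 0.07, Hr at −0.03 and Thra at −0.07.

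In females the 5 HT vehicle libraries had 6921, 7332, 7593, 7716 and 7866 of Klf9, against 6992, 6998, 7532, 7823 and 9067 in the 5 WT vehicle libraries, and the groups overlapped throughout. The difference was −0.03 ± 0.09 (95% interval −0.22 to 0.16), in a comparison where limma called 0% of genes and 0 of the 6, with 385 genes and none of the 6 at an unadjusted p below 0.05, and edgeR called 8 genes and 0 of the 6. Males minus females, the genotype difference of Klf9 was 0.61 ± 0.14 (0.32 to 0.90), which did not pass the adjustment (limma adjusted p = 0.124; 0% of genes called, 1574 genes and 1 of the 6 at an unadjusted p below 0.05, edgeR 0). A difference between the sexes was therefore not shown.

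The call of Klf9 in males rested on few mice. With the spread estimated from the compared groups only, the adjusted p was 0.117, without HT vehicle male replicate 3 it was 0.233 and without WT vehicle male replicate 4 it was 0.0860, the value staying at 0.48 or above. With the olfactory level as a covariate the value was 0.55 (adjusted p = 0.00781), without the 14 most olfactory libraries 0.63 (0.00261), after the GC and length correction 0.56 (0.0155) and by edgeR 0.56 (0.0106). Other genes moved with it, in a comparison that called 0.261% of all genes. Of 18 glucocorticoid-responsive genes 2 rose, Zbtb16 by 0.62 ± 0.14 (limma adjusted p = 0.0303) and Tsc22d3, which encodes GILZ, by 0.61 ± 0.13 (limma adjusted p = 0.0227), both named after their values were seen. The level of that list ran from 1.01 to 1.14 in HT and from 0.795 to 0.984 in WT vehicle males, without overlap. It weighs all 18 genes alike, among them Lcn2, which was at 0 in its lowest library. Of 14 endothelial and mural markers 2 fell, Cldn5 by 0.65 ± 0.15 (limma adjusted p = 0.0380) and Pdgfrb by 0.58 ± 0.11 (limma adjusted p = 0.00882), and 1 of 12 astrocyte markers, Sox9, fell by 0.83 ± 0.16 (limma adjusted p = 0.00882). The endothelial level ran from 0.875 to 1.01 in HT and from 1.06 to 1.22 in WT vehicle males, with every marker of the list above 0. The GC slope ran from −0.170 to −0.029 in HT and from 0.0003 to 0.139 in WT vehicle males, also without overlap. The part of these in the result was not tested beyond the settings given.

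The same WT vehicle males entered the drug comparisons of WT males. There Klf9 had 7042, 7292, 7587, 8453 and 8689 under lithium and 6931, 6938, 7978, 8020.1 and 9363 under fluoxetine, against 4774, 5951, 6085, 7143 and 7190 under vehicle, so each drug group overlapped vehicle at its lower end. In these contrasts, added after the data were seen, Klf9 rose under lithium by 0.34 ± 0.09 (95% interval 0.15 to 0.53, limma adjusted p = 0.0413), with 2.3% of genes and 1 of the 6 called, and by edgeR the adjusted p was 0.0528. Leaving out any of 6 libraries also ended that call, as did the compared groups only (0.136) and the GC and length correction (0.0668). Other lists moved in the same lithium comparison. Of 18 glucocorticoid-responsive genes 6 were higher, among them Fkbp5 (1.13, limma adjusted p = 0.000170), Zbtb16 (1.01, 4.71e-07) and Hif3a (1.05, 0.00566), and the level of the list ran from 1.04 to 1.80 in WT lithium and from 0.795 to 0.984 in WT vehicle males. Of 14 endothelial and mural markers 4 fell, among them Kdr by 0.83 (0.00278) and Cldn5 by 0.65 (0.00247), and 1 rose. Their level ran from 0.836 to 0.979 in WT lithium and from 1.06 to 1.22 in WT vehicle males. Of 12 astrocyte markers 1 rose and 2 fell, and of 9 microglia markers 1 fell. The part of these in the Klf9 value was not tested. Fluoxetine gave a Klf9 value of 0.34 ± 0.09 (0.15 to 0.53, limma adjusted p = 0.0564), with 1.03% of genes and 0 of the 6 called by limma and by edgeR and 1 of the 6 at an unadjusted p below 0.05. In HT males Klf9 gave −0.19 for lithium and −0.20 for fluoxetine, where limma and edgeR called 0 of the 6 and none of the 6 had an unadjusted p below 0.05; for fluoxetine 0% of genes were called by either tool, and 644 had an unadjusted p below 0.05. The difference of the lithium effect, HT minus WT with the sexes averaged, was −0.28 ± 0.10 for Klf9 (−0.48 to −0.08, limma adjusted p = 0.380), where 0.0166% of genes and 0 of the 6 were called. For fluoxetine it was −0.21 ± 0.10 (limma adjusted p = 1), where limma and edgeR called 0% of genes and 0 of the 6, and 634 genes and 1 of the 6 had an unadjusted p below 0.05.

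Among the 6 genes, 1 pair varied together more closely than the others. With group means removed, 8 of 15 pairs had a permutation adjusted p below 0.05 over the 56 libraries. Residuals were shuffled over all libraries, although 12 group means had been removed and 44 residual degrees of freedom remained. These p-values are therefore somewhat too small. Thra with Thrb (permutation adjusted p = 0.0448) and Hr with Klf9 (permutation adjusted p = 0.0484) may not hold. Dio2 and Slco1c1 were the closest, with r = 0.86 and rho = 0.79 (permutation adjusted p = 7.5e-05; the smallest raw p these permutations can give is 1e-05), and r = 0.84 without the 2 libraries farthest from the median. Leaving out each library in turn kept r between 0.84 and 0.87. Within lithium libraries r was 0.87 (n = 18), within fluoxetine libraries 0.93 (n = 20) and within vehicle libraries 0.48 (n = 18), and it was 0.90 in HT (n = 27) and 0.83 in WT libraries (n = 29); the differences between these were not tested. Both genes ran with the endothelial and mural level (r = 0.55, rho = 0.51 and permutation adjusted p = 8e-05 for Dio2, r = 0.60, rho = 0.54 and permutation adjusted p = 4.5e-05 for Slco1c1). With the astrocyte level they gave r = 0.05, rho = 0.14 (permutation adjusted p = 0.73) for Dio2 and r = 0.14, rho = 0.14 (permutation adjusted p = 0.344) for Slco1c1. The part of these levels in the correlation of the pair was not tested.

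**Figure D3:**
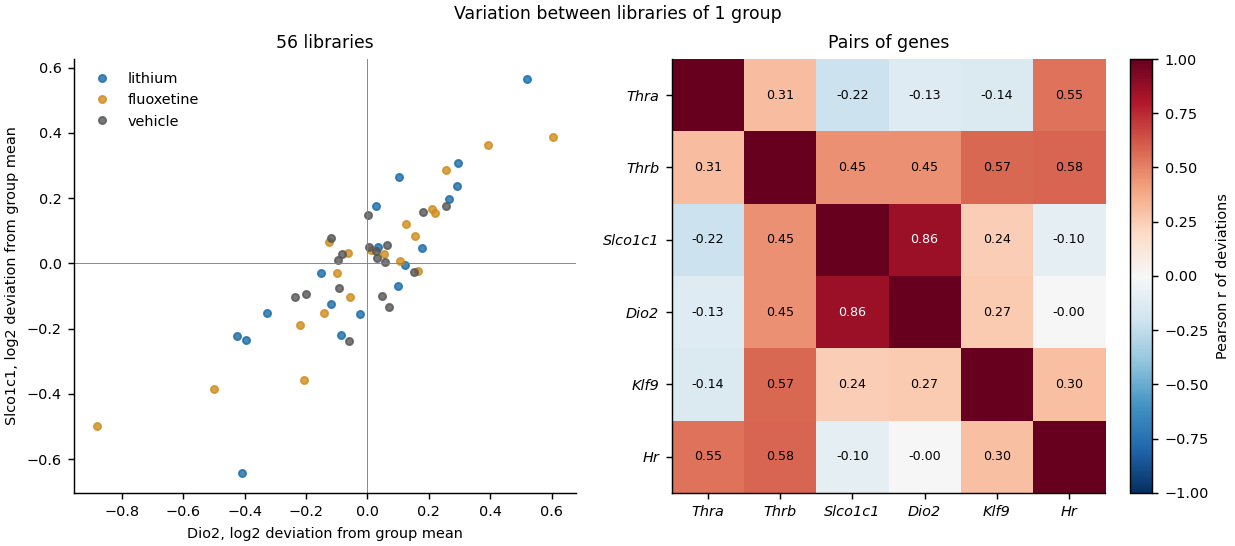
Left, log2 deviation of Dio2 against that of Slco1c1 from their group means, 1 point per library, coloured by drug; right, Pearson r of each of the 15 pairs over the 56 libraries. The Dio2 and Slco1c1 points follow 1 line (r = 0.86), and the next highest r is 0.58.

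The receptor Thrb ran with both responsive genes, with Hr at r = 0.58, rho = 0.59 and with Klf9 at r = 0.57, rho = 0.54, both with permutation adjusted p = 7.5e-05. Without the 14 most olfactory libraries these were 0.49 and 0.58. Thra and Hr gave r = 0.55, rho = 0.47 (permutation adjusted p = 7.5e-05), but 0.25 without those libraries. Thrb with Slco1c1 (r = 0.45, rho = 0.40, permutation adjusted p = 0.00192), Thrb with Dio2 (r = 0.45, rho = 0.26, 0.00192), Thra with Thrb (r = 0.31, rho = 0.32, 0.0448) and Hr with Klf9 (r = 0.30, rho = 0.31, 0.0484) were weaker, and were 0.28, 0.08, 0.03 and 0.17 without those libraries. After the GC and length correction the same 4 pairs gave r of 0.50, 0.48, 0.55 and 0.54, so that for Thra with Thrb and for Hr with Klf9 the 2 settings moved r in opposite directions. Dio2 and Hr gave r = −0.00. Thra ran with the GC slope (r = 0.70, rho = 0.65, permutation adjusted p = 4.5e-05).

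Genes of the wider pathway came from lists that were chosen with earlier results of these data known. Counts are over each whole list, while the genes named were mostly picked as called ones with the smallest p. Under lithium over both genotypes, where 21.7% of all genes were called, 2 of 8 genes of transport and metabolism rose. These were Slc7a5 at 0.18 ± 0.06 (limma adjusted p = 0.0155) and Slc3a2 at 0.12 ± 0.04 (limma adjusted p = 0.0157), the light and heavy chain of an amino acid carrier that also moves thyroid hormones. Neither passed after the GC and length correction (adjusted p = 0.158 and 0.0642). Of 13 receptor partners 4 rose and 1 fell. Among those higher were the coactivator genes Ncoa3 (0.22 ± 0.03, limma adjusted p = 2.34e-06), Ncoa2 (0.14 ± 0.03, 0.000114) and Ncoa1 (0.09, 0.0485), and Hdac3, a deacetylase of the corepressor complex, fell by 0.09 ± 0.02 (0.00506). The median of the 13 was 0.07.

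In the same lithium comparison, beside 21.7% of all genes called, 1 of 18 hormone-responsive genes rose and 4 fell. The median of that list was 0.03. Thrsp, a lipogenic gene induced by T3 in rodent liver, rose by 0.29 ± 0.09 (limma adjusted p = 0.0213), and among those that fell were Gbp3 by 0.30 ± 0.09 (0.0109), Flywch2 by 0.22 (0.0408) and the clock output gene Dbp by 0.19 (0.0444) on the log2 scale. Of 10 markers of myelinating oligodendrocytes, some of them in the hormone-responsive list too, 3 fell. The 18 glucocorticoid-responsive genes, which bear on Klf9 as its other known input, gave 9 higher and 1 lower with a median of 0.21, led by Zbtb16 at 0.67 ± 0.06 (limma adjusted p = 9.11e-11). Over libraries with group means removed, Klf9 did not run with the level of that list (r = −0.05, rho = −0.09, permutation adjusted p = 0.73). It ran with the neuron level (r = 0.56, rho = 0.52, permutation adjusted p = 0.000108) and against the GC slope (r = −0.41, rho = −0.42, 0.00464). With the astrocyte level it gave r = −0.36, rho = −0.38 (0.0105), and with the endothelial and mural level r = −0.32, rho = −0.39 (0.0259). The olfactory level gave r = −0.27, rho = −0.25 (0.0731). The level of the glucocorticoid-responsive list weighs all 18 genes alike, among them Lcn2, with a mean of 9.07 and 0 in its lowest library. The part of these levels in the Klf9 values was not tested, nor was the glucocorticoid input to Klf9.

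Within HT mice, where 9.77% of all genes were called, lithium called 0 of 8 transport genes, 3 of 13 partners (2 higher, among them Ncoa3 at 0.22, and Hdac3 lower at −0.12), 0 of 18 responsive genes and 3 of 18 glucocorticoid-responsive genes (Zbtb16 at 0.48 and Per1 at 0.40 higher, Errfi1 lower at −0.26). Within WT mice, beside 11.7% of all genes, the counts were 0 of 8, 4 of 13 (all higher, led by Ncoa2 at 0.21 ± 0.04, limma adjusted p = 0.000111), 1 of 18 (Dbp, which fell by 0.32 ± 0.10, limma adjusted p = 0.0224) and 8 of 18, all higher. Under fluoxetine over both genotypes, beside 7.62% of all genes, 1 of 8 transport genes rose (Slc7a5 by 0.16 ± 0.05, limma adjusted p = 0.0491), 2 of 13 partners rose (among them Ncoa3 by 0.15 ± 0.03, limma adjusted p = 0.00220), 1 of 18 responsive genes fell (Dbp by 0.26 ± 0.07, 0.0130) and 0 of 18 glucocorticoid-responsive genes were called. Fluoxetine in WT mice, beside 5.18% of all genes, called 0 of 8, 2 of 13, 3 of 18 and 1 of 18, the 3 including Mbp (−0.65) and Dbp (−0.34), where 6 of 10 myelin markers also fell. Fluoxetine in HT mice and genotype under vehicle, each with 0% of all genes called, called none in these 4 lists. Lithium against fluoxetine, beside 1.84% of all genes, called 0 of 8 transport genes, Hdac3 (−0.09, limma adjusted p = 0.0250) among partners, Gbp3 (−0.31, 0.0495) among responsive genes, and Zbtb16 (0.51) and Tsc22d3 (0.23) among the glucocorticoid-responsive ones. Thus the coactivator gene Ncoa3 was higher under both drugs, in comparisons that share their vehicle libraries, while the 6 genes themselves were not called. Over 10 other settings of the fit Ncoa3 lay between 0.13 and 0.22 under lithium and between 0.09 and 0.15 under fluoxetine and was called in each. Under at least 1 other setting, libraries left out included, calls ended for Slc7a5 under both drugs, for Slc3a2, Flywch2 and Dbp under lithium, and for Ncoa1 and Dbp under lithium in WT mice. The same held for Hdac3, Per1 and Errfi1 under lithium in HT mice, for Ncoa3, Dbp, Mbp and Zbtb16 under fluoxetine in WT mice, and for Hdac3, Gbp3 and Tsc22d3 in lithium against fluoxetine. The call of Ncoa1 under lithium over both genotypes was not followed through the other settings.

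**Figure D4:**
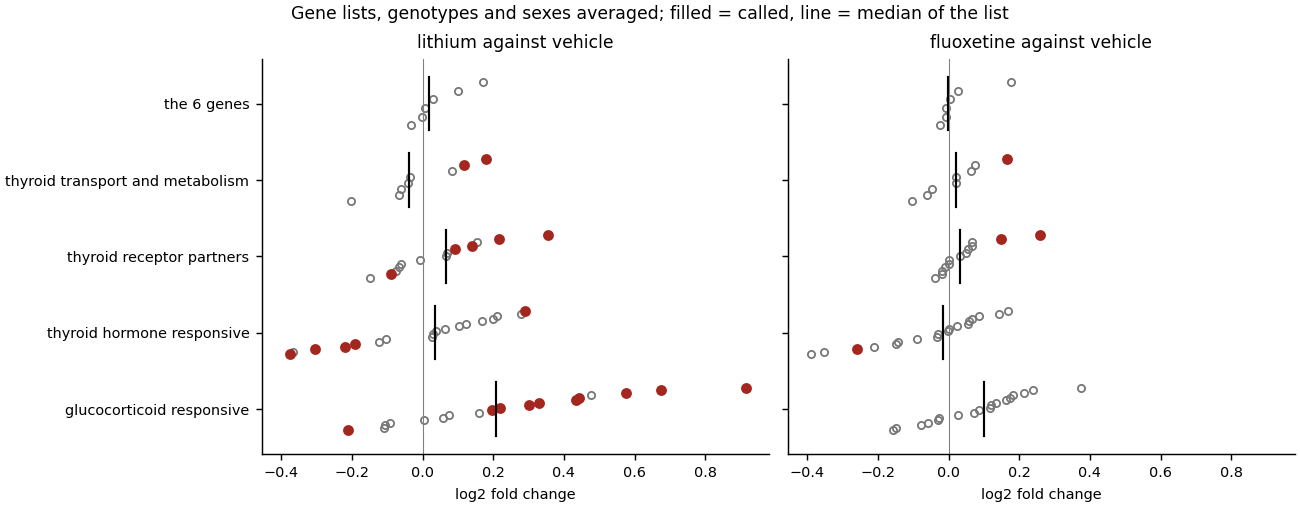
Log2 fold change (x axis) of every tested gene of each list (y axis) for lithium and for fluoxetine against vehicle, genotypes and sexes averaged. Filled points passed an adjusted p of 0.05 and lines mark list medians; receptor partners under lithium have 4 filled points above 0 and 1 below, and the 6 genes have none.

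The genes most like each of the 6 over all 56 libraries, by Pearson r of log2(value + 1) with group differences included, were Epn1 (0.87), Fkbp8 (0.85) and Eml2 (0.83) for Thra and Cap2 (0.94), Mapk10 (0.93) and Ldb2 (0.93) for Thrb. Dio2 was most like Slco1c1 (0.82), then Rab22a (0.75) and Exd2 (0.70). Slco1c1 was most like Dio2 (0.82), then P2ry12 (0.81) and Fcrls (0.79), both expressed in microglia. Hr was most like Galnt18 (0.79), Nfic (0.79) and Atp2b2 (0.78), and Klf9 like Skil (0.81), Lmbrd2 (0.81) and Samd8 (0.80). Dio2 and Slco1c1 were thus each other's nearest of all tested genes, predicted genes and pseudogenes aside, and no other 2 of the 6 were among each other's nearest 3. These libraries share tissue content, depth and GC slope, and the values are descriptions.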

How the data were processed

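RNA of prefrontal cortex was sequenced as TruSeq Stranded mRNA libraries, as the labels' protocols state. Values are a deposited signal per gene and library: counts that the authors scaled by a single size factor for each library. Salmon 0.11.2, R 3.6.0, DESeq2 1.19.11 and the build GRCm38 are named without roles, per the submitters' processing notes. Of 59 columns 3 matched no labelled sample and were not used; 1 of 57 labelled samples, a WT lithium female, had no column and was not analysed here. All values were whole multiples of 1 read (100% within 1e-06), so reads were recovered. No 2 libraries of a group agreed within sampling noise (smallest chi-square per degree of freedom 4.71 over 105 pairs), and 0 went against their labelled sex. Symbols came from an identifier table (18077 of 18088 matched), coordinates, length and GC content from the GENCODE annotation of GRCm38.

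The 18026 genes that reached 10 in 3 or more libraries were fitted with limma-trend (limma 3.58.1, R 4.3.3) on log2(value + 1) over 12 groups, with 44 residual degrees of freedom; the pseudocount understates changes of low genes. Comparisons were contrasts of group means, called where p, adjusted by Benjamini-Hochberg over all tested genes, was below 0.05. edgeR 4.0.16 (quasi-likelihood, TMM) on the recovered reads was an alternative. Only the limma fit was tested on simulated data. Correlations used residuals from group means, with 100000 permutations over all libraries. Because the group means had been removed, the permutation p-values are somewhat too small. The genes and lists were chosen with earlier results of these data known. The genes named are the 6, up to 4 called genes with the smallest p per pathway list and comparison (or 2 as values), and the 3 genes most like each of the 6; some are not reported here. Ncoa1 under lithium, and list genes in vehicle males, were named after their values were seen. Replicate numbers did not pair the libraries.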

Additional observations from a re-analysis of the deposited data

Results flagged for a closer look

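Within groups of 4 to 10 libraries, 66 sets of values of the 6 genes were searched for a library far from the rest, and 2 held one; chance alone gives about 1 in 20. Thra in WT fluoxetine female replicate 4 was 17193, below the nearest other library of its group at 22594. Thrb in WT lithium female replicate 1 was 1288, below the nearest other library of its group at 1687. Both libraries are among the 14 of highest olfactory level.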

How the results depend on the processing

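Of the 162 values of the 6 genes over 27 comparisons 2 were called, both of Klf9. Recomputing these under every setting gave 4836 values of the 6 genes: 4790 stayed on their side of the threshold, 12 lost the call, 34 gained one and 0 called values changed sign, while 411 uncalled values did. The called pathway genes gave 1631 further values, of which 167 lost the call. For each change below the cause was not tested. With the olfactory level as a covariate the count of genes called became 1 in 9 comparisons: Hr for lithium and for fluoxetine over both genotypes, lithium in HT, fluoxetine in WT, both drugs in females, lithium in HT females and fluoxetine in WT females, and Klf9 for fluoxetine in WT males. Without the 14 most olfactory libraries it became 1 in 7: Hr for lithium over both genotypes, lithium in HT, lithium in females and fluoxetine over both genotypes, Klf9 for lithium in WT (0.24, adjusted p = 0.0395) and fluoxetine in WT males, and Thrb for fluoxetine in WT (0.29, adjusted p = 0.0174). Without those libraries 5 pairs of genes passed, against 8 with all. Without the 2 libraries apart the count became 1 for fluoxetine in WT males. It became 0 for lithium in WT males by edgeR, after the GC and length correction and with the compared groups only, and 0 for HT against WT vehicle males with the compared groups only.

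Leaving out each library in turn, the count ran between 0 and 1 for lithium in HT and in females, for fluoxetine over both genotypes, in females, in WT females and in WT males, for lithium in WT males, for HT against WT vehicle males, and for its difference between the sexes, where Klf9 was called without WT vehicle male replicate 1 (0.66, adjusted p = 0.0464). Libraries whose absence called Hr were HT lithium female replicates 2 and 4, HT vehicle female replicates 2 and 4, WT vehicle female replicates 3 and 5 and WT fluoxetine female replicate 4. The count of pairs ran between 6 and 9. Replicate numbers did not pair the libraries: the correlation of deviations averaged 0.001 over 289 same-numbered pairs, 67 of them over 0.1. With the replicate number as a block Klf9 in vehicle males was 0.54 (adjusted p = 0.0154), and the block changed no call of the 6 genes. Depth was at least 22984556 reads in every library. How far mice, dissection, library preparation and counting error each widened the intervals was not tested.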
